A study of Gymnopus androsaceus with 9 samples.

Results

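A set of 150 genes of Gymnopus androsaceus was at similar levels in mycelium harvested at 2 and 5 months and at higher levels in mycelium harvested at 10 months. Members were chosen by their measured levels in all 9 libraries of the series, out of 29375 listed genes. A level here is the number of reads unique to a gene, divided by the library's DESeq2 median-of-ratios size factor and expressed as CPM of the mean library. A gene qualified with a mean of at least 10 at 10 months, at least 2 times both earlier means, the earlier means within 1.5-fold of each other, and every 10-month library above all 6 earlier ones. The rule was met by 412 genes, and the 150 with the highest ratio of the 10-month mean to the higher earlier mean were kept. The levels, ratios and separation given below are therefore the values that selected these genes and are given as a description, without a test. The deposited tables give JGI protein IDs without gene names or products, so nothing can be said here about what the genes encode.

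The fungus grew in sealed vessels on needles of Scots pine mixed with sand, which had been sterilised by gamma radiation and inoculated with a needle already colonised by the fungus. All vessels, at every harvest, received ammonium chloride at the start and were kept at one temperature. The groups were mycelium after 2, 5 and 10 months, with 3 biological replicates each, and no strain or genotype is named in the labels. Total RNA was taken from frozen, ground material of each vessel, labelled mycelium. In these bulk samples a larger share of one kind of hypha and more transcript per cell cannot be told apart.

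Gymnopus androsaceus, the horsehair fungus, is a litter-decomposing agaric that colonises fallen conifer needles and spreads by thin, dark rhizomorphs. Fungi of this kind live on plant cell walls, which they break down with secreted hydrolases and with oxidative enzymes that act on lignin and other phenolic compounds. The more accessible carbon of fresh litter is generally used before the more resistant fractions, and nitrogen is scarce in pine needles, so the conditions for a mycelium change as it ages on the same substrate.

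Library depth ran from 21939600 to 96533143 unique gene reads. In 3 libraries, 2-month replicate 2 and 10-month replicates 1 and 2, a group of 6 very abundant genes that varied together took over 10% of the reads, at 24.9%, 17.2% and 31.9%. Their share was as low as 1.24% in 10-month replicate 3. None of the 6 belonged to the 150 members. Size factors are set by the typical gene and not by such a group, whereas library totals and the deposited RPKM values include its reads. Levels and ratios below are on the size-factor scale unless another is named. With library totals the log2 ratio of each of the 20 members named by rule was lower. No 2 libraries of a harvest agreed within sampling noise.

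The members' transcripts together made up a small part of the pool at every harvest and a larger part at the last. They took 0.917%, 0.793% and 0.952% of unique reads in the 2-month libraries, 1.004%, 1.009% and 1.12% in the 5-month libraries, and 2.55%, 2.68% and 3.15% in the 10-month libraries. These are plain shares of each library. The lowest 10-month share was more than 2 times the highest earlier one. For a single member the ratio of the 10-month mean to the higher earlier mean ran from 2.74 to 126, with a median of 3.85, against a median of 0.837 over the 20168 genes tested. The divisor is the higher of 2 means, which lowers this ratio in any gene whose earlier means differ. Every 10-month library exceeded all 6 earlier ones in every member, as the rule requires, and in 12.7% of all tested genes. The gap between the lowest 10-month library and the highest earlier library was 2.59-fold in the median member, and at least 2-fold in 117 of the 150. It was under 1.5-fold in 7.

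**Figure D1:**
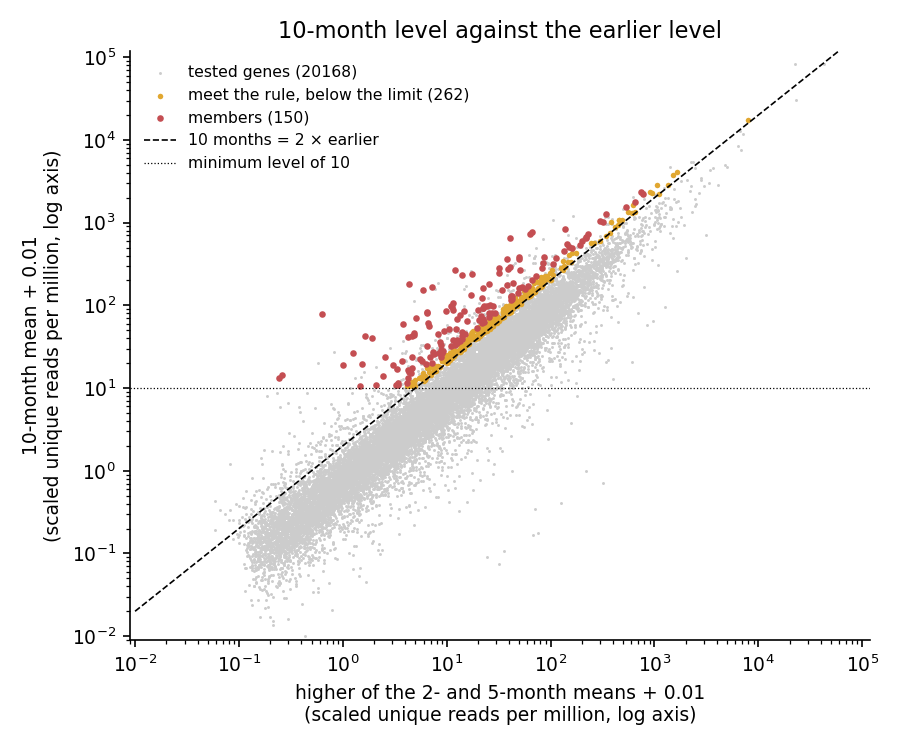
Each point is a gene, placed by the higher of its 2- and 5-month mean levels (x axis) and its 10-month mean level (y axis), in CPM from scaled unique reads on log axes. The 150 members lie above the dashed 2-fold line at earlier levels from 0.236 to 775, and 262 further genes that met the rule lie between them and that line at ratios of 2.00 to 2.74. A value of 0.01 was added for plotting.

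The number of genes that met the rule depended on the scaling. With levels scaled to library totals alone, 110 genes met the rule in place of 412, and 108 of the 150 members were among them. The median log2 ratio of the members was then 1.45 in place of 1.95, and the median over all tested genes was -0.74 in place of -0.26, so that both moved by a similar amount. In deposited RPKM, 128 of the 150 members were at least 2 times both earlier means, and 147 had every 10-month library above all earlier ones. The matching shares over all tested genes were not computed in RPKM, where their median log2 ratio was -0.73. The RPKM values come from the same libraries, and nothing is read from these 2 counts.

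For 10 against 5 months, edgeR's quasi-likelihood test, run over all 20168 genes, called all 150 members higher, where 9.94% of all tested genes were called higher. For 10 against 2 months it again called all 150 higher, against 17.5% of all tested genes. The median log2 fold changes of the members were 2.16 and 2.07, and those of all tested genes -0.035 and -0.026. With library totals 149 members were called in each contrast, beside 2.90% and 8.36% of all tested genes. Since the same contrasts chose the members, these counts describe the choice and support nothing further.

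Only 4 members were close to silent before 10 months, with earlier means under 1 CPM. The strongest of them was ID 990777, whose levels were 0.487, 0.686 and 0.218 at 2 months, 0.394, 0.970 and 0.492 at 5 months, and 89.6, 88.8 and 55.0 at 10 months. No earlier library came near the 10-month range, and the 10-month mean of 77.8 ± 19.8 (SD, n = 3) was 126 times the higher earlier mean. The estimate rests on 16754 unique reads at 10 months and 213 over the 6 earlier libraries. ID 919429 had 0.295, 0.187 and 0.255 at 2 months, 0.197, 0.471 and 0.0776 at 5 months, and 18.1, 15.0 and 10.0 at 10 months, a ratio of 57.9. ID 977217 had 0.281, 0.187 and 0.0364 at 2 months, 0.295, 0.231 and 0.181 at 5 months, and 17.7, 15.0 and 7.17 at 10 months, a ratio of 56.4. In each of these 3 genes, on the size-factor scale, 10-month replicate 3 was the lowest of its harvest and still more than 20 times the highest earlier library. In deposited RPKM replicate 2 was the lowest for ID 990777, at 128, 85.4 and 87.5, and for ID 919429, at 25.8, 14.3 and 15.8. Replicate 3 remained the lowest for ID 977217, at 18.5, 11.0 and 9.02 RPKM. ID 977217 had the fewest earlier reads of all members, 81 in total, and 26.8% of its reads also mapped to other genes, which lowered its ratio to 49.2 when all reads were counted. ID 958687, named here after its values were seen because it completes this small group, had 0.960, 0.998 and 1.02 at 2 months, 0.676, 0.836 and 0.543 at 5 months, and 15.5, 24.4 and 17.0 at 10 months. None of the 150 members was at 0 unique reads in any library, so every ratio has a measured denominator. The denominators of the 3 highest ratios are small. With 1 CPM added to each mean, the log2 ratios of IDs 990777, 919429 and 977217 were 5.61, 3.62 and 3.53. They were 6.98, 5.86 and 5.82 without it.

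A ratio of at least 10 was seen in 21 members, whose 10-month means ran from 13.3 to 768 with a median of 80.5. ID 918377 came next by ratio, at 41.3. It had 9.32, 2.65 and 1.13 at 2 months, 3.28, 3.47 and 4.55 at 5 months, and 184, 186 and 171 at 10 months. Its 2-month libraries were uneven, with replicate 1 well above the others and an SD of 4.36 on a mean of 4.37, whereas its 10-month libraries lay close together on this scale, at 180.5 ± 8.17. In deposited RPKM they were 114, 77.8 and 118, a mean of 103 ± 22.2 (SD, n = 3 each). ID 975287, the next, had 1.05, 2.34 and 0.764 at 2 months, 1.56, 1.37 and 1.92 at 5 months, and 46.2, 49.1 and 32.0 at 10 months, a ratio of 26.2. The earlier harvests of this gene overlapped, and its lowest 10-month library was 13.7 times its highest earlier one. Across the 21 genes that margin was 6.99 or more, with a median of 13.1.

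**Figure D2:**
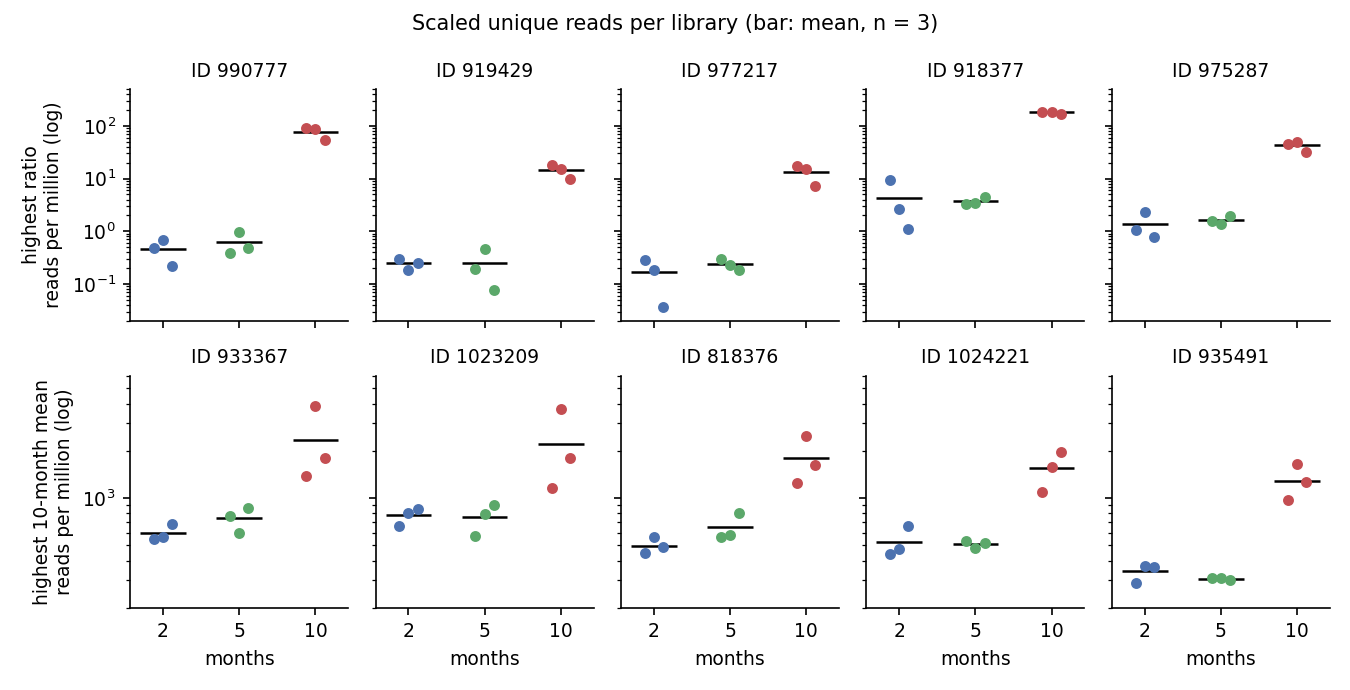
Level of 10 members in every library (points) with the harvest mean (bar, n = 3), in CPM from scaled unique reads on log axes, against months of growth. The upper row holds the 5 members with the highest ratio, which were at 7.17 or more at 10 months, and the lower row the 5 with the highest 10-month mean, which were already at 288 or more at 2 months.

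The members with the most reads at 10 months had much lower ratios. ID 933367 had 546, 569 and 685 at 2 months, 767, 598 and 867 at 5 months, and 1390, 3867 and 1797 at 10 months. ID 1023209 had 662, 807 and 857 at 2 months, 573, 790 and 900 at 5 months, and 1151, 3700 and 1789 at 10 months. In both genes 10-month replicate 2 was more than 2 times each of its companions, and the ratios were 3.16 and 2.85. Without that library the log2 ratio of ID 933367 was 1.11 in place of 1.66, and that of ID 1023209 was 0.93 in place of 1.51, under the 2-fold limit. With library totals the log2 ratios were 0.99 and 0.88. ID 818376 followed the same order of libraries at the last harvest, with 448, 561 and 485 at 2 months, 562, 584 and 804 at 5 months, and 1256, 2493 and 1629 at 10 months, a ratio of 2.76, or a log2 ratio of 1.46, which was 0.85 with library totals. ID 1024221 differed in having its highest value in replicate 3, with 443, 475 and 663 at 2 months, 535, 480 and 517 at 5 months, and 1090, 1587 and 1958 at 10 months. ID 935491 was the steepest of these 5, with 288, 372 and 363 at 2 months, 308, 308 and 301 at 5 months, and 968, 1641 and 1264 at 10 months, a ratio of 3.79.

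Per transcript length, ID 1023209 was the most abundant member, at 3182 ± 1147 RPKM (SD, n = 3) at 10 months, where its rank among all listed genes was 17. Its transcript is short, 564 bases. ID 765155, named after its values were seen, came next in RPKM, with 631, 982 and 2144 RPKM as means at 2, 5 and 10 months. Its transcript is the shortest of the set, 177 bases. In all, 6 members were among the 100 genes with the highest RPKM at 10 months. At 2 and 5 months 21 and 22 members were in the top 10% of tested genes by RPKM, and at 10 months 65 were. Below the median tested gene lay 50 members in the first harvest, 51 in the second and 2 in the last. The median member stood at 13.1, 14.4 and 52.7 RPKM at the 3 harvests, against 7.88, 8.85 and 5.95 RPKM for all tested genes. The median member was thus above the median tested gene before the last harvest too. No test was made of this, since the minimum level in the rule removes weakly expressed genes.

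Grouped by their earlier level, 52 members had a higher earlier mean between 1 and 10 CPM, 75 between 10 and 100, and 19 of 100 or more. The median ratio fell along these groups, at 57.2 for the 4 near-silent genes, then 5.13, 3.86 and 3.16. The highest ratio in the last group was 6.07. The rule bears on this order, since a gene at 1 CPM earlier needed a ratio of 10 to reach the minimum. Median transcript length was 728 bases in the near-silent genes and 1172, 1515 and 1226 bases in the groups above them.

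**Figure D3:**
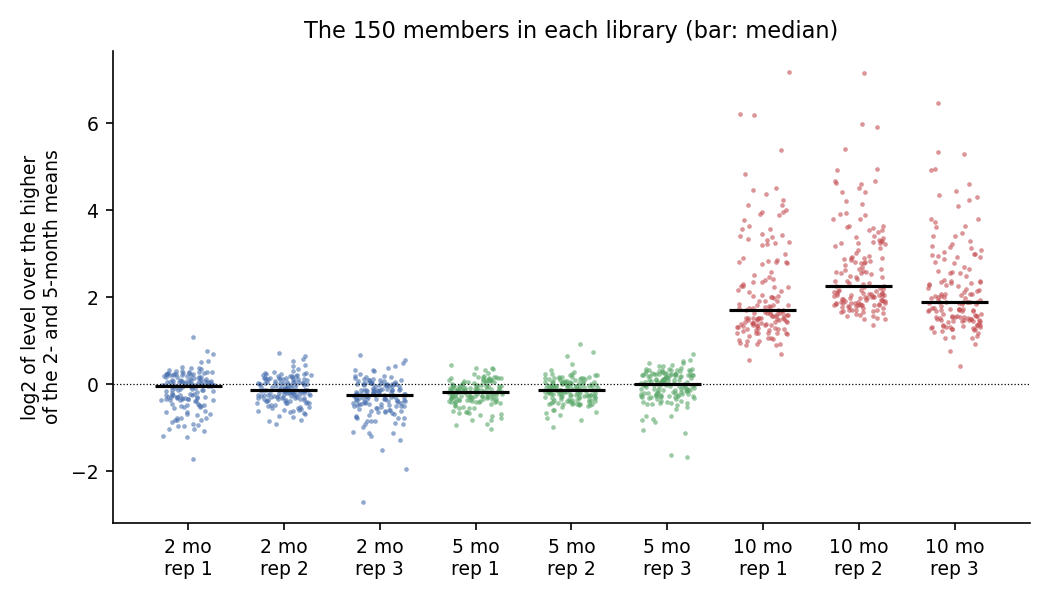
Log2 of each member's level over the higher of its own 2- and 5-month means (y axis) in each of the 9 libraries (x axis), with 150 points and a median bar per library. The 6 earlier libraries centre near 0 and all 10-month libraries lie above, with replicate 2 highest.

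At 10 months the members differed between replicate vessels. Relative to the higher earlier mean, the median member stood at 3.27-fold in replicate 1, 4.79-fold in replicate 2 and 3.71-fold in replicate 3. With library totals the same medians were 2.48-fold, 2.46-fold and 3.21-fold. On the size-factor scale replicate 2 held the highest value of its harvest in 121 of the 150 members, replicate 1 in 20 and replicate 3 in 9, where the shares over all tested genes were 39.4%, 33.4% and 27.2% for replicates 2, 1 and 3. The commonest order was replicate 2, then 3, then 1, in 73 members, and the next was replicate 2, then 1, then 3, in 48. In 36 members replicate 2 was at least 1.5 times both others, beside 1291 of all 20168 tested genes. With library totals 2 members and 185 of all tested genes reached 1.5 times. On the size-factor scale 8 members reached 2 times, a cut that was not counted over all tested genes. The lead of replicate 2 was found with median-of-ratios, TMM and upper-quartile scaling, at 121, 113 and 109 members. It was not found with library totals or with deposited RPKM, where replicate 3 was highest in 87 and 86 members and replicate 2 in 25 and 27. Replicate 3 was then highest in 58.0% and 57.3% of the members, and in 65.3% and 64.8% of all tested genes. Replicate 2 was highest in 16.7% of the members and 4.83% of all tested genes with library totals, and in 27 of the 150 members and 4.92% of all tested genes with deposited RPKM. The share of members highest in replicate 2 was thus above that of all tested genes under each of the 5 scalings, and which library led the members was not the same under each. Replicate 2 is also the library with the heaviest load of the 6 very abundant genes, at 31.9% of reads, and it has the smallest TMM factor, 0.596. The members were chosen by these same 10-month levels, so the rule bears on which library led them. The parts of the rule and of that load in the members' order were not tested.

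**Figure D4:**
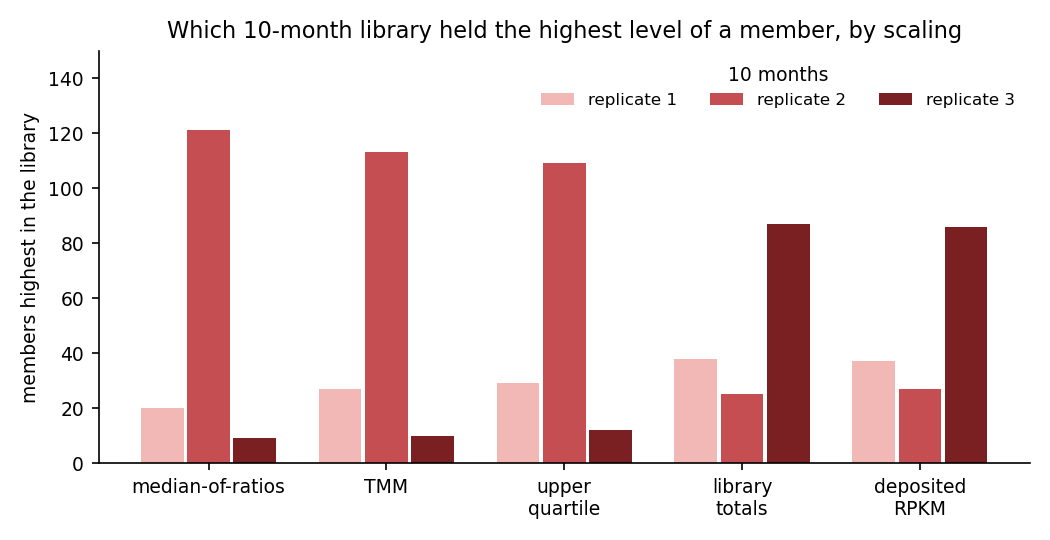
Number of the 150 members (y axis) whose highest 10-month value was in replicate 1, 2 or 3, under 5 ways of scaling the libraries (x axis). Replicate 2 leads with 109 to 121 members under the 3 composition-based scalings, and replicate 3 with 86 or 87 under library totals and deposited RPKM.

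On the size-factor scale replicate 2 led at each size of ratio, beside 39.4% of all tested genes. Among the 21 with a ratio of at least 10, replicate 2 was highest in 13, replicate 1 in 6 and replicate 3 in 2, and the median member had 1.19 times the mean of the other 2 libraries in replicate 2. Among the 52 with a ratio from 4 to 10, replicate 2 was highest in 43 and stood at 1.47 times the others. Among the 77 with a ratio under 4, it was highest in 65 and stood at 1.33 times the others. With TMM and with upper-quartile scaling, replicate 2 was highest in 10 of the 21 and replicate 1 in 9. In the other 2 classes replicate 2 was highest in 40 and 63 members with TMM, and in 38 and 61 with upper-quartile scaling. With library totals replicate 2 was highest in 2, 11 and 12 members of the 3 classes, and replicate 3 in 10, 25 and 52. The near-silent genes went another way, with replicate 1 highest in 3 of 4 under all 5 scalings.

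The widest spread at 10 months belonged to ID 807277, with 11.1, 11.3 and 10.5 at 2 months, 9.09, 12.03 and 13.4 at 5 months, and 21.4, 77.2 and 15.5 at 10 months. Its ratio of 3.31 dropped to 1.61 without 10-month replicate 2, below the 2-fold limit, and its lowest 10-month library was only 1.16 times its highest earlier one. ID 921273 had 1.58, 2.75 and 4.87 at 2 months, 1.64, 3.27 and 2.51 at 5 months, and 7.30, 38.2 and 11.5 at 10 months. Its ratio was 6.19, or 3.08 without replicate 2. ID 874465 had 4.16, 4.55 and 3.86 at 2 months, 2.67, 4.31 and 5.12 at 5 months, and 16.9, 74.0 and 31.7 at 10 months, with a ratio of 9.75, or 5.83 without replicate 2. In all 3 genes that library was the highest by far, and the other 10-month libraries were also above every earlier one, as the rule requires.

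At the other end, ID 994759 had 8.33, 7.89 and 6.44 at 2 months, 8.99, 6.20 and 10.2 at 5 months, and 26.2, 26.9 and 27.3 at 10 months, where its coefficient of variation (SD over mean) was 2.22%. ID 914188 had 2.998, 3.81 and 5.71 at 2 months, 5.20, 4.26 and 4.45 at 5 months, and 43.0, 43.7 and 41.7 at 10 months, a ratio of 9.24. ID 919749 had 1.28, 1.34 and 1.09 at 2 months, 0.996, 1.06 and 1.58 at 5 months, and 25.6, 26.6 and 27.1 at 10 months, a ratio of 21.3. This evenness holds on the size-factor scale. In deposited RPKM the 10-month values of ID 994759 were 15.4 ± 3.90 and those of ID 919749 were 20.0 ± 5.04 (SD, n = 3 each).

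Over the whole set the coefficient of variation had a median of 17.0% at 2 months, 16.1% at 5 months and 23.6% at 10 months. All tested genes with a mean of at least 10 at the harvest in question, members included, had medians of 17.2%, 13.1% and 12.99%. The medians lay close together at 2 months and farthest apart at 10 months, where 10 members exceeded 50% and 23 were under 10%. With library totals the order at 10 months turned round, at 20.1% for the members and 25.9% for the tested genes, and with deposited RPKM likewise, at 19.9% and 25.6%, so the wider spread holds under size-factor, TMM and upper-quartile scaling and under neither of these. At 2 and 5 months some members lay under the minimum of 10 that was set for the tested genes. The rule used the 10-month levels of the members, so it bears on their spread at that harvest. The difference in spread was not tested.

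**Figure D5:**
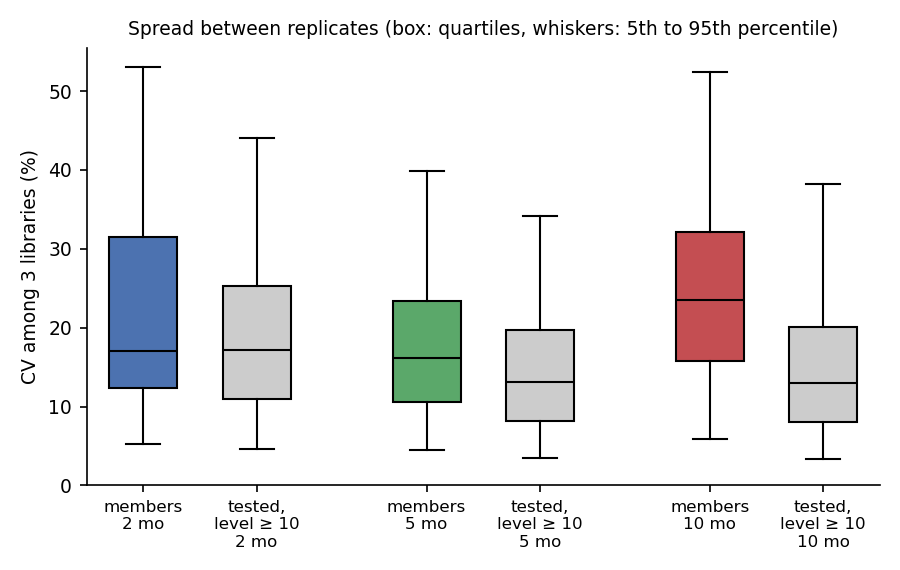
Coefficient of variation among the 3 libraries of a harvest (y axis, percent) for the members and for tested genes with a mean level of at least 10, on the size-factor scale. Boxes are quartiles with the median, whiskers the 5th to 95th percentile, and the largest offset between members and tested genes is at 10 months, with medians of 23.6% and 12.99%.

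The rule limits the earlier means to a 1.5-fold window. The mean at 5 months was above that at 2 months in 83 members and below it in 67, with a median ratio of 1.05. For 5 against 2 months edgeR called 0 of the 150 members, where 20.7% of all tested genes were called. At an unadjusted p under 0.05 the count was 14, against 34.9% of all tested genes. Limma voom called 0 members and 20.3% of all tested genes, and DESeq2 called 3 members and 25.9% of all genes it gave an adjusted p. The 2- and 5-month libraries did not overlap in 32 members (21.3%), against 37.9% of all tested genes. The window fixes much of this, and nothing is read from it.

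The rule did not use transcript length. Lengths, recovered from the deposited RPKM and counts, ran from 177 to 3464 bases in the members, with a median of 1286 and quartiles of 830 and 1708. All tested genes had a median of 1107 and quartiles of 714 and 1626. Transcripts under 500 bases made up 7.33% of the members and 11.4% of tested genes, and those of 3000 bases or more 2.67% and 4.82%. Longer transcripts collect more reads at the same abundance, and the minimum of 10 is not set per length, and the part of the rule in the longer median was not tested.

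The rule counted unique reads only, which lowers the level of a gene with many shared reads. The part of the rule in how far the members share reads was not tested. In 69 members (46.0%) no read was shared with another gene, against 52.2% of tested genes. In 131 of the 150 (87.3%) under 1% of the gene's reads also mapped elsewhere, against 78.5% of tested genes. In 8 members (5.33%) over 10% did, against 8.31% of tested genes. The levels of these 8 are uncertain, because reads that also map to other genes cannot be assigned to a single gene. The most affected was ID 863224, where 76.6% of reads were shared. Its unique reads gave 2.04, 5.74 and 5.02 at 2 months, 3.96, 3.52 and 4.97 at 5 months, and 12.8, 19.6 and 17.2 at 10 months. Its ratio was 3.88 on unique reads and 3.53 when all reads were counted. ID 839753, with 28.8% shared, had 7.22, 6.33 and 4.04 at 2 months, 5.24, 6.15 and 8.15 at 5 months, and 34.3, 35.9 and 27.6 at 10 months, and ratios of 5.00 and 5.47 on the same measures. Over the 8 genes the ratio on all reads ran from 2.78 to 49.2. Reads that map to more than 1 gene were left out by the rule and can be looked at by themselves. Among 25 members with at least 100 such reads, these reads were at least 2 times both earlier means at 10 months in 23, with a median ratio of 5.68. These reads come from the same genes and libraries, and those of a member cannot be told apart from those of another gene. The matching share over all tested genes was not computed, so nothing is read from this count.

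The limit of 150 cut through a continuous range. The last member inside, ID 47300, had 8.82, 7.33 and 10.0 at 2 months, 6.57, 7.97 and 7.43 at 5 months, and 22.1, 27.3 and 22.4 at 10 months, a ratio of 2.744. The one before it, ID 983600, had 20.9, 18.8 and 17.2 at 2 months, 19.1, 20.3 and 19.5 at 5 months, and 48.9, 63.9 and 48.8 at 10 months, a ratio of 2.746. Just outside, ID 958205 had 29.7, 30.8 and 17.2 at 2 months, 25.0, 25.5 and 35.8 at 5 months, and 54.8, 108 and 74.1 at 10 months. Its ratio was 2.742. ID 400397 had 11.2, 10.7 and 13.9 at 2 months, 15.0, 17.4 and 19.7 at 5 months, and 28.8, 56.9 and 57.1 at 10 months. Members and non-members on both sides of the limit were thus alike in ratio, to within 0.01.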

How the data were processed

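Each of the 9 deposited tables gives per JGI protein ID a count of reads specific to the gene, a count that includes reads shared with other genes, and RPKM, per the file headers. The total count, RPKM and library sums gave one whole transcript length, within 0.01 bases, for each of 25486 genes, so the deposited RPKM is scaled to total gene reads. Which aligner, gene models, build and counting program the authors used is not given in the sources used here. Tests on the unique reads used edgeR 4.0.16 under R 4.3.3 (TMM, filterByExpr, robust quasi-likelihood fit of all libraries with 6 residual degrees of freedom, Benjamini-Hochberg adjusted p under 0.05). The filter kept 20168 genes, all members among them. The edgeR step and the rule were tested on simulated data. Size factors were those of DESeq2 1.42.0, also run as a test, with limma 3.58.1 as another. Summaries and figures used Python 3.11.15, pandas 2.3.3 and matplotlib 3.10.9. Depth was 21939600 to 96533143 unique reads, so the limit that a count of 0 allows (3 reads) was 0.0311 to 0.137 CPM, for counting error only.

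Members and the rule for naming genes were chosen with earlier results of these data known. Named were the 5 highest ratios, the 5 highest 10-month means, the 3 widest and 3 narrowest 10-month spreads, the 2 largest shares of non-unique reads, the 3 lowest earlier read numbers, and the pairs inside and outside the limit. Lists by product name were not used, as IDs carry no products. The 6 abundant genes had r over 0.95 to the top gene, in log2 CPM after adding 0.5, and a mean over 1000 CPM. Replicates are called biological in the labels.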

Additional observations from a re-analysis of the deposited data

How the results depend on the processing

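The members' median stayed higher at 10 months under every alternative run, which the rule largely fixed. The median log2 ratio was 1.82 to 2.09 with single libraries left out, 1.93 with TMM, 1.45 with library totals and 1.46 in deposited RPKM, and the last 2 moved it by more than the 0.28 SD among 10-month libraries. For the 20 members named by the rule, 0 of 280 alternative values reversed, 46 moved by more than the gene's own spread, and 9 fell below 2-fold. The same values chose the members, so nothing is read from the absence of a reversal. The number of genes that met the rule was 412. It was 110 with library totals, 258 with a minimum of 50, 906 with a ratio of 1.5, 73 with a ratio of 4, and 271 with the narrower window on the earlier means. It ran from 319, without 10-month replicate 2, to 498, without 10-month replicate 1, with 148 and 150 of the members among them. Without 2-month replicate 2, 129 members met the rule. Without the 3 libraries rich in the 6 abundant genes, an alternative chosen after seeing the data that leaves a single 10-month library, 348 genes and 125 of the members met the rule. Members called higher at 10 months numbered 140 to 150 in each contrast over all alternatives, and the 140 came from a filter of 10 CPM that kept only 140 members. The share of all tested genes called higher ran from 2.90% to 13.4% against 5 months, and from 8.36% to 22.1% against 2 months. The same contrasts chose the members, so nothing is read from these counts. For 5 against 2 months DESeq2 called 3 members, beside 25.9% of all genes it gave an adjusted p. Leaving out single libraries gave 0 to 3 members, beside 13.7% to 19.9% of all tested genes. Replicate numbers did not pair the vessels: deviations of same-numbered libraries had correlations of -0.34 to 0.16, over 0.1 in 1 of 9 pairs. With the replicate number as a block, 148 and 150 members were called higher at 10 than at 5 and 2 months. The shares of all tested genes were 7.32% and 15.4%. Between 5 and 2 months that fit called 0 members and 15.4% of all tested genes. The fewest unique reads of any member were 2227 over the 10-month libraries and 81 over the earlier ones. The named members whose ratio moved by over 1.5 times with 1 library left out were IDs 807277, 921273 and 874465, each without 10-month replicate 2.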

Other observations

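A further 262 genes met every condition of the rule and fell below the limit, with ratios from 2.00 to 2.74 and a median of 2.26. Their median 10-month mean was 69.7 CPM, and 85 of them reached at least 100. The most abundant of them had a 10-month mean of 17485 CPM, above the 2351 of the most abundant member. On the size-factor scale 10-month replicate 2 held the highest value of its harvest in 216 of the 262, and with library totals replicate 3 did in 205 and replicate 2 in 23. Over all tested genes replicate 2 was highest in 39.4% on the size-factor scale. With library totals replicate 3 was highest in 65.3% of all tested genes and replicate 2 in 4.83%. These genes too met a rule on their 10-month levels, and its part in this order was not tested. Only 1 of the 262 genes had over 10% of reads that also map elsewhere.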
